A study of Mus musculus with 2 samples.

Results

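Open chromatin was examined at 8 genes of the long-chain fatty acid transport protein family (*Slc27a1*, *Slc27a2*, *Slc27a4* and *Slc27a5*) and the fatty acid binding protein family (*Fabp1*, *Fabp2*, *Fabp4* and *Fabp5*) in mouse liver. A region of open chromatin was taken when the deposited table gave 1 of these genes as its closest transcription start site (TSS), by symbol or Ensembl identifier. This rule found 30 of the 69549 distinct regions, and they belonged to 7 of the 8 genes. Of these, 9 were promoter regions, whose centre lay within 1 kb of the TSS, and 21 lay farther away. No region carried the symbol of *Slc27a1*, although a region at its promoter was listed with another gene, as described below, and *Fabp4* had no promoter region. Nearest to the 1 kb limit lay a *Slc27a2* region at 967 bp on the inside (log2 ratio -1.79, defined below) and a *Fabp4* region at 1755 bp on the outside (log2 ratio -0.77). Measured from the RefSeq start of *Slc27a2*, which is farther downstream, that *Slc27a2* region would lie outside the limit.

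ATAC-seq uses the Tn5 transposase to cut accessible DNA and tag it for sequencing, so the reads over a region measure how open it is. The *Mettl3* flox/flox library was made from livers of 4 mice pooled together, and the *Mettl3*-HKO library from livers of 4 other mice. All mice were 8 weeks old, on the C57BL/6 strain background and fed normal chow, and both groups carried the floxed *Mettl3* alleles. The *Mettl3*-HKO mice also carried 1 *Alb-Cre* allele (*Alb-Cre*+/-), in which the albumin promoter drives Cre in hepatocytes, so that other liver cells keep the gene. METTL3 is the catalytic subunit of the RNA m6A methyltransferase. With 1 pooled library per group there was no replicate error, so every difference below is between these libraries, and the 95% Clopper-Pearson intervals cover counting error only.

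Long-chain fatty acids enter hepatocytes with the help of membrane proteins and are trapped inside by coupling to coenzyme A. The SLC27A proteins, also called FATPs, take part in uptake and have acyl-CoA synthetase activity, and FATP2 (*Slc27a2*) and FATP5 (*Slc27a5*) are the main forms in liver. FABPs are small soluble proteins that carry fatty acids through the cytosol, with FABP1 as the abundant form of hepatocytes, and *Fabp1* is a well-known target of PPARα, which binds DNA together with RXR.

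The RefSeq promoter sequences (GRCm38.p6) are shown for the members whose promoter region overlapped one. Reads were counted over whole regions, so the differences described below are not placed on the letters shown. Such a sequence was found for *Slc27a2*, *Slc27a4*, *Fabp1* and *Fabp2*, and the promoters of *Slc27a5*, *Fabp4* and *Fabp5* are named only. The *Fabp1* stretch is chr6:71199629-71199826 on the plus strand and ends at the last base before the TSS used by the authors. The capitals mark a DR1 element on the opposite strand, meaning 2 copies of AGGNCA in the same direction with 1 base between them, the arrangement bound by PPAR with RXR and by HNF4A.
Fabp1: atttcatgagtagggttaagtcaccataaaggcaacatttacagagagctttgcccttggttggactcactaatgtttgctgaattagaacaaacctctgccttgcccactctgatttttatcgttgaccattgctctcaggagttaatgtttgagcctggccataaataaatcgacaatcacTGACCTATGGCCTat

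The element lay 67 to 55 bases before the RefSeq start of *Fabp1*, and the copy farther from that start is also a match to AGGTCA, the single motif that nuclear receptors bind. A match to DR1 was found in 0.381% of the 32851 RefSeq promoter windows, which run from 250 bases before to 50 bases after a start. The same *Fabp1* window held a second AGGTCA match 9 to 4 bases and a TATA box, TATAAA, 30 to 25 bases before the RefSeq start, beyond the stretch shown. AGGTCA was found in 16.3% and the TATA box in 13.6% of all windows, searched on both strands. A match describes the letters only, and binding was not measured here.

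The *Fabp2* promoter is chr3:122894822-122895071 on the plus strand, and the *Slc27a4* promoter is chr2:29802384-29802633 on the plus strand. The capitals mark a CCAAT box on the opposite strand of *Fabp2* and GC boxes, GGGCGG, in *Slc27a4*.
Fabp2: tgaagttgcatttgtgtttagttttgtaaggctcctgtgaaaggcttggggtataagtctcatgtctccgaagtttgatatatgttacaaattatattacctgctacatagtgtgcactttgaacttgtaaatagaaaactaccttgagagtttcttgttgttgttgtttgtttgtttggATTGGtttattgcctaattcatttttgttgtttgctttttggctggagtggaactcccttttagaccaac
Slc27a4: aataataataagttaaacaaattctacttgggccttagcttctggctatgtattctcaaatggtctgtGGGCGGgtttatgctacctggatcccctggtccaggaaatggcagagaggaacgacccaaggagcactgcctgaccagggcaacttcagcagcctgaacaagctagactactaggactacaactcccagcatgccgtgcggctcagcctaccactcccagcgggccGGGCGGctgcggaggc

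The CCAAT box of *Fabp2* lay 70 to 66 bases before its RefSeq start, and 37.4% of all windows held a match. The GC boxes of *Slc27a4* shown lay 182 to 177 and 16 to 11 bases before its start, and 35.7% of all windows held a match. For *Slc27a2* only short stretches are given, because the TSS used by the authors, at position 126552407 of chromosome 2, lies upstream of the RefSeq start at 126553024. They are chr2:126552792-126552821 with an AGGTCA match in capitals that reads on the opposite strand, and chr2:126552944-126552973 with a GC box in capitals, both on the plus strand.
Slc27a2 AGGTCA match: gcaccacgccttTGACCTtttcaacgtggg
Slc27a2 GC box: agccccacgaggGGGCGGgacccacggccg

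A second *Slc27a2* GC box, on the opposite strand, lay 48 to 43 bases before the RefSeq start. Over the whole windows, the GC content was 65.3% for *Slc27a2* with 25 CpG dinucleotides, 58.7% for *Slc27a4* with 14, 45% for *Fabp1* with 3 and 38.7% for *Fabp2* with 3. All 300 bases of the *Slc27a2* and *Fabp1* windows, 262 of *Slc27a4* and 166 of *Fabp2* lay inside the promoter region of the gene. These promoters thus ranged from rich to poor in CpG.

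The scale of the libraries bears on every value. The totals by which the authors scaled were 52826209 reads for *Mettl3* flox/flox and 58038309 reads for *Mettl3*-HKO, and 31.7% and 22.3% of them lay on the distinct regions. The median log2 ratio, *Mettl3*-HKO over *Mettl3* flox/flox with 1 read added to each count, was -0.38 over all regions and -0.56 over the 14387 promoter regions, of which 83.9% were below 0. Ratios are therefore also given centred, with the median of all regions subtracted. The *Mettl3* promoter region, which runs from upstream of the gene into its first intron, held 566 and 392 reads (log2 ratio -0.66). The floxed part is exons 2 and 3, on which no region lay, so these reads do not check the knockout.

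The liver label was checked on marker genes. All 8 hepatocyte markers had a region, and the 7 hepatocyte promoter regions summed to 59.1 RPM (reads-per-million of the library total) in *Mettl3* flox/flox and 38.5 in *Mettl3*-HKO. Their median log2 ratio was -0.76 (range -1.32 to 0.02), beside -0.56 over all promoter regions. At least 2-fold lower were 2 of 7, beside 16.3% of all promoter regions. The 7 endothelial promoter regions were weak and summed to 153 and 400 reads, or 3.03 and 7.01 RPM. Their median log2 ratio was 1.60 (range 0.14 to 1.78), and 5 of 7 were at least 2-fold higher, beside 4.07% of all promoter regions. The 3 macrophage promoter regions, at 2 of 8 genes, summed to 84 and 185 reads, or 1.65 and 3.24 RPM (median 1.07). Adipocyte markers had 2 promoter regions, at *Cidec* with a log2 ratio of 0.02 and at *Pck1* with -1.23, and *Pck1* is also expressed in hepatocytes. In bulk tissue, fewer nuclei of a cell type and less open chromatin per nucleus cannot be told apart. These marker differences moved with the group, and their part in the results at the fatty acid genes was not tested.

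Across the members, 7 of 9 promoter regions (77.8%) had a log2 ratio below 0, beside 83.9% of all promoter regions. Of the other regions, 18 of 21 (85.7%) were below 0, beside 59.8% of all other regions. The shares of all regions are not matched for strength. By mean RPM of the libraries, 54.9% of the weakest 3597 promoter regions and 98.6% of the strongest 3597 were below 0. The 21 member regions outside promoters were denser in *Mettl3* flox/flox than all other regions, with medians of 8.04 and 3.52 RPM per kb. Whether strength bears on their direction was not tested. The sizes of the log2 ratios differed widely between genes. Of the 9 promoter regions, 4 were at least 2-fold lower and 0 at least 2-fold higher. Among all promoter regions, 16.3% were at least 2-fold lower and 4.07% at least 2-fold higher. Of the 586 higher ones, 518 were among the weakest 3597 and 1 among the strongest 3597. All 9 member promoter regions were stronger than the weakest 3597, so 0 of 9 higher does not set them apart. In the lower direction the same groups held 567 and 513. The log2 ratios of the 9 member promoter regions ran from -1.79 to 0.38 with a median of -0.84. Of the 21 other regions, 10 were at least 2-fold lower and 0 higher, beside 18.8% lower and 15.6% higher among all other regions, and their median was -0.92, where all other regions had -0.27. After centring, 3 of 9 promoter regions and 6 of 21 other regions were at least 2-fold lower, beside 5% and 8.65% of all. In the higher direction, centred counts were 0 of 9 and 1 of 21, beside 6.90% and 23.5%. Of the 993 promoter regions at least 2-fold higher after centring, 842 were among the weakest 3597. *Slc27a2* alone held 7 of the 14 regions past 2-fold, and without it 2 of 7 promoter regions and 5 of 16 other regions were at least 2-fold lower, with medians of -0.66 and -0.73.

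**Figure D1:**
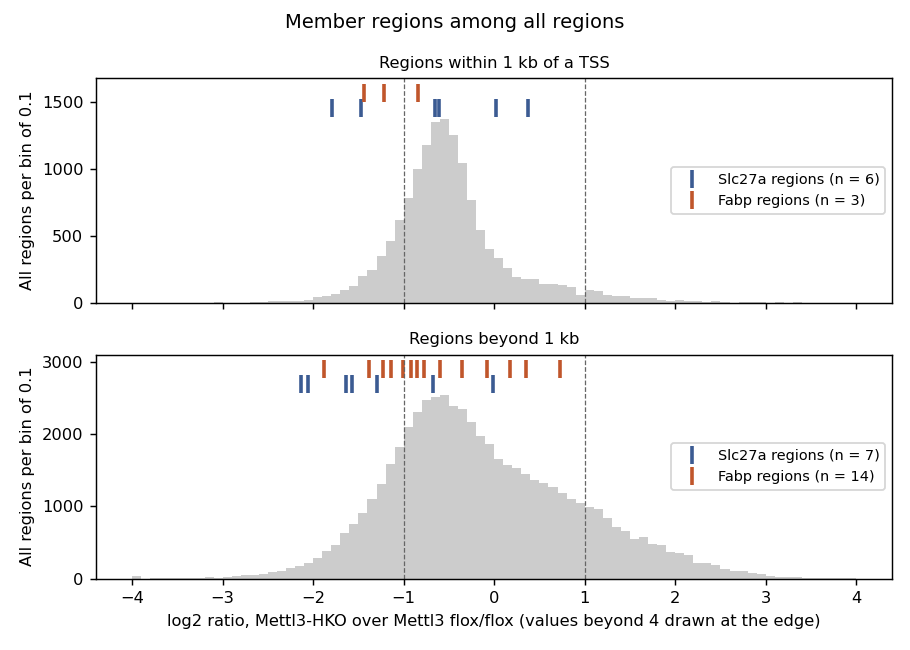
Number of regions per bin of log2 ratio (x axis, *Mettl3*-HKO over *Mettl3* flox/flox, library totals) for all promoter regions (top) and all other regions (bottom), with a tick for each of the 30 regions of the 7 member genes (Slc27a and Fabp in separate colours) and dashed lines at 2-fold. Ticks lie at or beyond the lower line for 4 of 9 promoter regions and 10 of 21 other regions, and none beyond the upper line.

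*Slc27a2* had the lowest summed ratio of the 7 genes with a region. FATP2, its product, is a plasma membrane and peroxisomal protein that transports long-chain fatty acids and activates very long-chain ones. Its main promoter region, chr2:126552603-126553225, was centred 506 bp downstream of the TSS in the 5' untranslated region. It held 1333 reads in *Mettl3* flox/flox and 526 in *Mettl3*-HKO, which is 25.3 and 9.08 RPM. The log2 ratio was -1.48 (-1.63 to -1.33), or -1.10 centred, and 3.59% of all promoter regions had a lower ratio. Peaks were called there in both libraries. The region chr2:126551326-126551554, centred 967 bp upstream, held 298 and 94 reads, or 5.66 and 1.64 RPM. Its log2 ratio was -1.79 (-2.15 to -1.46), or -1.41 centred, and the peak was called only in *Mettl3* flox/flox.

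All 5 regions farther upstream of *Slc27a2* were also at least 2-fold lower in *Mettl3*-HKO. The strongest, chr2:126549591-126550080, lay 2572 bp upstream and held 738 and 194 reads (log2 ratio -2.06, -2.30 to -1.83). The difference from the main promoter region was -0.59 on the log2 scale (-0.86 to -0.31), so this upstream region was lower still by more than counting error. The most distant region, chr2:126534404-126534791, 17810 bp upstream, held 171 and 42 reads (log2 ratio -2.14, -2.68 to -1.67). Between them, the region 14469 bp upstream held 177 and 62 reads (log2 ratio -1.63), that at 6904 bp held 193 and 71 (-1.57), and that at 6030 bp held 162 and 72 (-1.29). Summed over the 7 regions, *Slc27a2* held 3072 and 1061 reads, a log2 ratio of -1.67 (-1.77 to -1.57). Under each of the other 3 scalings tried, all 7 regions stayed below 0, with a summed log2 ratio between -1.29 and -1.02. The number at least 2-fold lower went from 7 to 6 centred on all regions, 5 scaled to the reads on regions and 3 centred on the strongest promoters. Under the same 3 scalings the share of all promoter regions at least 2-fold lower went from 16.3% to 5%, 3.15% and 1.99%, and that of all other regions from 18.8% to 8.65%, 6.42% and 4.69%. In 4 of the 7 regions a peak was called in *Mettl3* flox/flox only, and in none only in *Mettl3*-HKO, beside 16.8% and 21.5% of all regions.

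The assignment of these regions has limits. The upstream regions lie in introns of a gene on the opposite strand, ENSMUSG00000097458, which has no symbol in the table, and its start is close to that of *Slc27a2*, so that reads at this promoter cannot be given to 1 of the genes. A further 3 regions inside *Slc27a2*, by its RefSeq position, were closest to the start of that gene and were not members by the rule. The region chr2:126561582-126562053 held 261 and 138 reads (log2 ratio -1.05, -1.36 to -0.75). The region chr2:126555481-126555913 held 617 and 420 reads (log2 ratio -0.69, -0.87 to -0.51). The farthest into the gene, chr2:126575387-126576188, held 373 and 405 reads (log2 ratio -0.02, -0.22 to 0.19), so the lower signal did not extend to every region of the locus.

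*Slc27a5* differed from *Slc27a2*, although both are liver FATPs. FATP5 takes up fatty acids at the hepatocyte membrane and is also a bile acid-CoA ligase. The region at its start, chr7:12997860-12998464, centred 11 bp upstream on the minus strand, held 349 and 389 reads, or 6.63 and 6.72 RPM. Its log2 ratio was 0.02 (-0.19 to 0.23), an interval that spans 0. Centred, the ratio was 0.40, and 84.5% of all promoter regions had a lower one. The region 903 bp upstream, chr7:12998881-12999226, held 139 and 199 reads (log2 ratio 0.38, 0.06 to 0.71). In the first exon, 629 bp downstream, chr7:12997312-12997730 held 172 and 124 reads (log2 ratio -0.60, -0.95 to -0.27) and had a peak in *Mettl3* flox/flox only. The upstream and first exon regions of this 1 promoter thus differed by 0.99 on the log2 scale (0.51 to 1.46).

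Within the *Slc27a5* gene body, a region in the second intron, chr7:12995907-12996198, held 163 and 178 reads (log2 ratio -0.01, -0.32 to 0.31). A weaker region in the fourth exon held 136 and 93 reads (log2 ratio -0.68). Summed over 5 regions the gene held 959 and 983 reads, a log2 ratio of -0.10 (-0.23 to 0.03) by library totals and 0.28 to 0.55 under the other 3 scalings, so its direction depends on the scaling. The contrast with *Slc27a2* does not, because scaling cancels within the libraries. Between the regions nearest each start the *Slc27a2* ratio was lower than that of *Slc27a5* by a log2 difference of -1.5 (-1.76 to -1.24), and between the summed counts by -1.57 (-1.73 to -1.40). This difference, and the 14 of its kind computed in all, were chosen after the values were seen.

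*Slc27a4*, which encodes the FATP of intestine and skin, had 1 region, and *Slc27a1*, which encodes the FATP of muscle and fat, had none by the rule. The *Slc27a4* region, chr2:29802422-29803221, was centred 187 bp downstream of the TSS and held 227 and 158 reads, or 4.32 and 2.74 RPM. Its log2 ratio of -0.66 (-0.96 to -0.36) was close to the median of all promoter regions, and 40.9% of them were lower. The centred ratio was -0.28. The *Slc27a2* promoter was lower than that of *Slc27a4* by a log2 difference of -0.82 (-1.15 to -0.48). A region within *Slc27a1* by its RefSeq position (chr8:71568728-71587307) was listed with *Nxnl1* as its closest gene. It spans RefSeq starts of *Slc27a1* at 71569597 and 71570594, so by RefSeq it lies at the promoter of *Slc27a1*, though it is no member by the rule. That region, chr8:71569493-71570799, was strong, with 1573 and 1046 reads, and its log2 ratio was -0.72 (-0.84 to -0.61), or -0.35 centred.

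**Figure D2:**
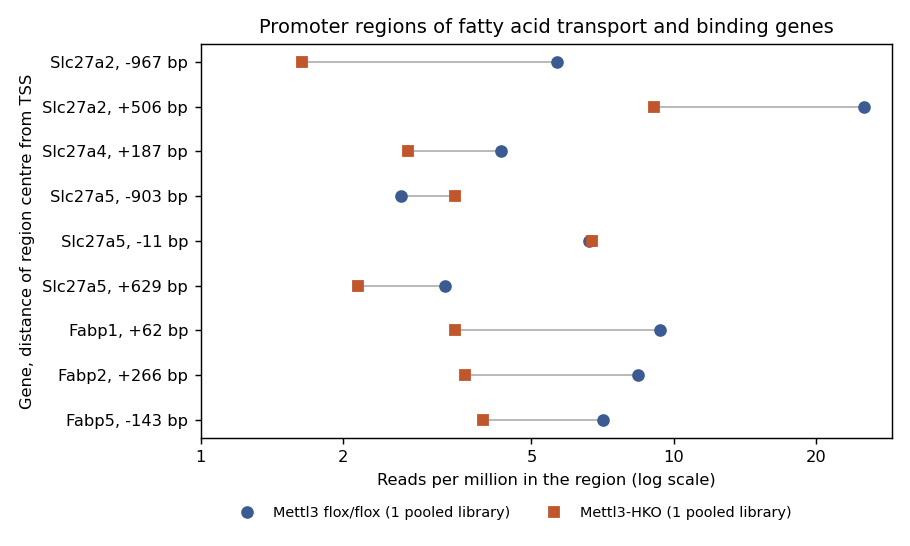
RPM (x axis, log scale) in each of the 9 promoter regions in the *Mettl3* flox/flox library (circles) and the *Mettl3*-HKO library (squares), with the distance of the region centre from the TSS beside the gene. The squares lie left of the circles in 7 regions, and the *Slc27a5* region 903 bp upstream and that 11 bp upstream are the exceptions.

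All 3 Fabp promoter regions were lower in the *Mettl3*-HKO library, a direction shared by 83.9% of all promoter regions, and their median log2 ratio of -1.21 stood beside -0.56 over all. They stayed below 0 under the other 3 scalings. The *Fabp1* promoter region, chr6:71199626-71200154, holds the DR1 element shown above and was centred 62 bp downstream of the TSS. It held 492 and 199 reads, or 9.33 and 3.45 RPM. The log2 ratio was -1.44 (-1.69 to -1.20), or -1.06 centred, and 4.12% of all promoter regions were lower. Peaks were called in both libraries. This ratio and that of the main *Slc27a2* promoter region differed by -0.04 (-0.32 to 0.25), an interval that spans 0.

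The other 6 *Fabp1* regions were uneven. A region 1931 bp upstream held 296 and 138 reads (log2 ratio -1.23) with a peak in *Mettl3* flox/flox only. One 10072 bp upstream held 164 and 89 reads (log2 ratio -1.01, -1.41 to -0.64). The only region downstream of the gene, chr6:71206108-71206325, held 83 and 24 reads (log2 ratio -1.88, -2.65 to -1.26). The strongest distal region, chr6:71184997-71185697 at 14480 bp upstream, held 320 and 195 reads (log2 ratio -0.85). Between these, the regions 6324 and 3511 bp upstream stood near equal reads. The first held 158 and 196 (log2 ratio 0.17, -0.13 to 0.49), and the second held 129 and 134 (log2 ratio -0.08) with a peak in *Mettl3*-HKO only. The promoter was lower than these by log2 differences of -1.62 (-2.01 to -1.22) and -1.36 (-1.80 to -0.92), so the locus did not differ as a block. Of the 7 *Fabp1* regions, 4 were at least 2-fold lower by library totals, and 2, 1 and 1 under the other 3 scalings, in the order given for *Slc27a2* with the shares of all regions. The promoter fell short of 2-fold under the last 2 scalings (-0.93 and -0.79).

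*Fabp2*, which encodes the intestinal FABP, was lower at all 5 of its regions by library totals. Of them, 3 were at least 2-fold lower, but only 1, 0 and 0 under the other 3 scalings, in the order given for *Slc27a2* with the shares of all regions. The *Fabp2* promoter region, chr3:122894956-122895721, was centred 266 bp downstream of the TSS and held 442 and 209 reads, or 8.39 and 3.62 RPM. The log2 ratio was -1.21 (-1.46 to -0.98), or -0.84 centred. The log2 difference of the *Fabp1* promoter from it was -0.23 (-0.57 to 0.12), an interval that spans 0. The strongest distal region, chr3:122888237-122888902 at 6503 bp upstream, held 283 and 242 reads (log2 ratio -0.36, or 0.02 centred). The promoter was lower than this region by a log2 difference of -0.85 (-1.21 to -0.50). The region 15902 bp upstream held 118 and 49 reads (log2 ratio -1.39), that 9218 bp downstream held 49 and 24 (-1.14, -1.93 to -0.43), and that 7243 bp upstream held 171 and 99 (-0.92). All these regions lie in introns of ENSMUSG00000097852, another gene without a symbol in the table.

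*Fabp5* and *Fabp4* had smaller differences. FABP5 is the epidermal form, also made in macrophages, and FABP4 is the form of adipocytes, macrophages and capillary endothelium. The *Fabp5* promoter region, chr3:10012180-10012745, centred 143 bp upstream, held 373 and 228 reads, or 7.08 and 3.95 RPM. The log2 ratio was -0.84 (-1.09 to -0.60), or -0.47 centred, and 25.5% of all promoter regions were lower. The *Fabp1* promoter was lower than that of *Fabp5* by a log2 difference of -0.60 (-0.94 to -0.25). At 3040 bp upstream, a *Fabp5* region held 164 and 119 reads (log2 ratio -0.60).

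A weak *Fabp5* region 4804 bp upstream, chr3:10007685-10007917, went the other way. It held 44 and 81 reads (log2 ratio 0.73, 0.20 to 1.31), with a peak in *Mettl3*-HKO only, and after centring it was the 1 region of the members past 2-fold higher (1.11). The log2 difference from the *Fabp5* promoter was 1.59 (0.99 to 2.21). The regions of *Fabp4* both lay in its last exon on the minus strand and were weak. The region chr3:10206408-10207198 held 114 and 73 reads (log2 ratio -0.77, -1.22 to -0.34) with a peak in *Mettl3* flox/flox only. The region chr3:10205818-10206197 held 39 and 55 reads (log2 ratio 0.35, -0.26 to 0.99) with a peak in *Mettl3*-HKO only. These *Fabp4* regions differed from each other by a log2 difference of 1.13 (0.37 to 1.91), and beside these genes the endothelial and macrophage promoter regions were higher in *Mettl3*-HKO, as given above.

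**Figure D3:**
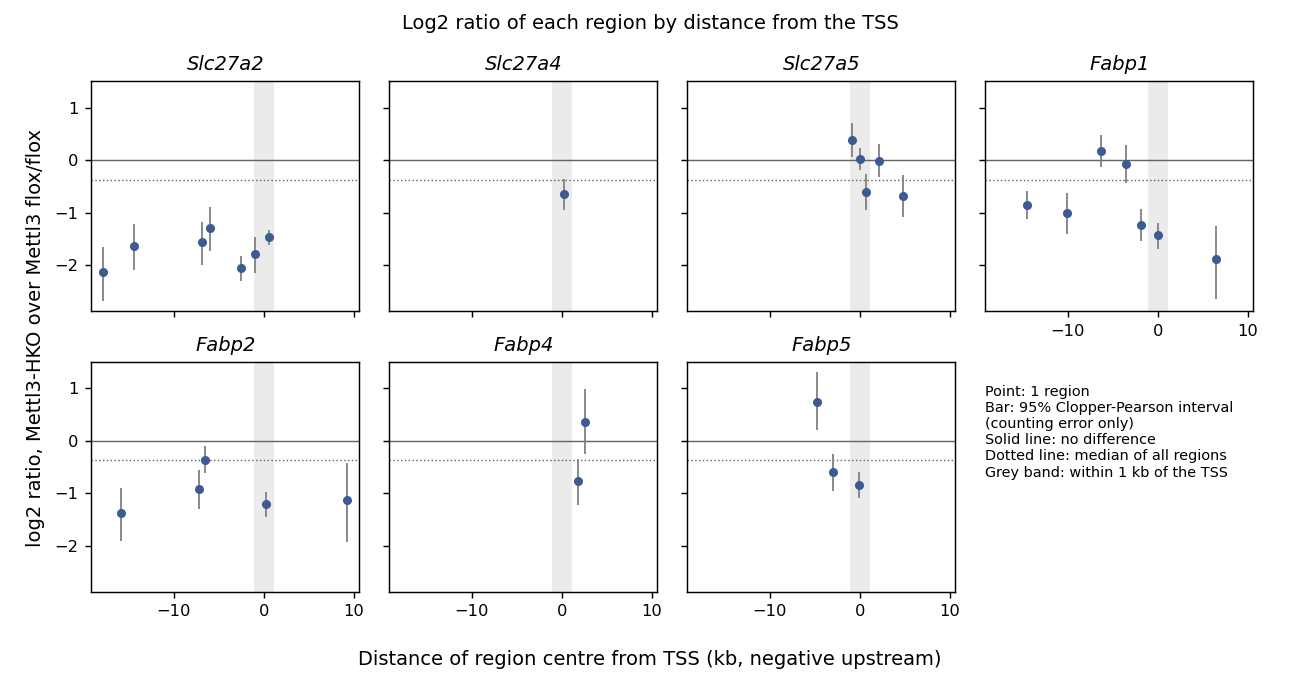
Log2 ratio (y axis, *Mettl3*-HKO over *Mettl3* flox/flox, library totals) of each of the 30 regions against the distance of its centre from the TSS (x axis, kb), 1 panel per gene, with 95% Clopper-Pearson intervals that cover counting error. All 7 *Slc27a2* points lie at or below -1.29, the 5 *Slc27a5* points lie between -0.68 and 0.38, and the *Fabp1* points at 6324 and 3511 bp upstream stand above its other 5.

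The order of the promoters by read density, in RPM per kb with exact Poisson 95% intervals, also differed between libraries. In *Mettl3* flox/flox the main *Slc27a2* region was the densest at 40.5 (38.4 to 42.7), followed by its upstream region at 24.6 (21.9 to 27.6) and by *Fabp1* at 17.6 (16.1 to 19.2). *Fabp5* at 12.5, *Fabp2* at 10.9 and the *Slc27a5* region at its start, also at 10.9, had overlapping intervals. The other *Slc27a5* regions, at 7.77 and 7.60, overlapped each other, and *Slc27a4* was lowest at 5.37 (4.70 to 6.12). In *Mettl3*-HKO the main *Slc27a2* region was still the densest at 14.5 (13.3 to 15.8). It was followed by the *Slc27a5* regions at 11.1 and 9.91, whose intervals overlapped. The upstream *Slc27a2* region at 7.07, *Fabp5* at 6.94 and *Fabp1* at 6.48 came next with overlapping intervals. That of the upstream *Slc27a2* region (5.72 to 8.66) also overlapped that of the *Slc27a5* region at 9.91 (8.58 to 11.4). The *Slc27a5* first exon region at 5.10 and *Fabp2* at 4.70 overlapped each other, and *Slc27a4* was lowest at 3.40 (2.89 to 3.98). *Fabp1* was thus denser than the *Slc27a5* start in *Mettl3* flox/flox and less dense in *Mettl3*-HKO.

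Peak calls over all members pointed to the same library as the reads. Of the 30 regions, 18 had a peak in both libraries, 9 (30%) in *Mettl3* flox/flox only and 3 (10%) in *Mettl3*-HKO only. The shares among all regions were those given for *Slc27a2*. The same reads gave the peaks and the counts, so these are not separate measurements.

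Of 25 other genes of fatty acid uptake, activation and binding, 22 had a region and 11 had a promoter region. Of their 14 promoter regions, 3 were at least 2-fold lower and 0 at least 2-fold higher, beside 16.3% and 4.07% of all promoter regions. Their median log2 ratio was -0.64, or -0.27 centred, near the -0.56 of all promoter regions. *Mfsd2a*, a transporter of lysophosphatidylcholine that carries long-chain fatty acids, held 472 and 127 reads (log2 ratio -2.02, -2.32 to -1.74, or -1.64 centred). *Lipc*, which encodes hepatic lipase, held 185 and 96 reads (log2 ratio -1.08, -1.45 to -0.72, or -0.70 centred). The region 785 bp upstream of *Cav1*, which encodes the caveolar protein caveolin-1, held 52 and 20 reads (log2 ratio -1.47, -2.34 to -0.75, or -1.09 centred). The stronger *Cav1* region 57 bp upstream held 309 and 175 reads and fell short of 2-fold (log2 ratio -0.95, -1.23 to -0.68, or -0.57 centred). *Cd36*, a membrane receptor for long-chain fatty acids, went the other way, with 42 and 82 reads at its start (log2 ratio 0.81, 0.28 to 1.40, or 1.19 centred). Its second promoter region held 81 and 127 reads (log2 ratio 0.51, 0.10 to 0.93, or 0.88 centred). After centring, the *Cd36* start was thus past 2-fold higher and *Lipc* was no longer past 2-fold lower. The 66 other regions of this list included 13 at least 2-fold lower and 9 at least 2-fold higher, beside 18.8% and 15.6% of all other regions, and their median of -0.32 was near the -0.27 of all. The acyl-CoA synthetase *Acsl6* and the binding proteins *Fabp6* and *Fabp7* had no region.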

How the data were processed

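Liver ATAC-seq of 1 *Mettl3* flox/flox and 1 *Mettl3*-HKO library was used. The authors trimmed adaptors with skewer, aligned reads to GRCm38 with BWA, called peaks per library with MACS2, keeping duplicates, and merged them into regions. How reads were counted on the regions, and any correction for the Tn5 offset, are not given in the sources used here. The authors deposited raw counts, RPM and fold enrichment (a ratio) per region and library, and their own log2 fold change, which was not used. The RPM of the authors equals the count plus 1 over a library total, which was recovered from the values (52826209 and 58038309 reads). The fold enrichment the authors deposited was not used.

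Of 74821 rows, 5272 repeated a region and were left out. Starts were converted to count from 1. The median region held 85 and 81 reads, and the median interval of a member spanned 0.35 on the log2 scale to each side. A region was called past 2-fold at a log2 ratio of 1 or more in size. Intervals of the difference between regions are exact conditional intervals of the odds ratio. Duplicates make reads less independent than intervals assume. No test across mice was possible.

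The members and gene lists were chosen with earlier results of these data known. All members were named with every promoter region. Of other regions, those past 2-fold and the strongest per gene were given singly, and the others shown were added after their values were seen. Of the list of 25 genes, those with a promoter region past 2-fold and *Cd36* were named. Adipocyte, stellate and cholangiocyte markers were also listed: the 3 stellate promoter regions went both ways (log2 ratio -2.51 at *Reln*, 0.08 at *Col1a1* and 1.67 at *Hand2*) and summed to 14.0 and 3.65 RPM, and the 6 cholangiocyte ones had a median of -0.36 (range -1.60 to 1.19). Alternatives were another scaling (3), added reads, a minimum of 50 counts, the promoter window, the fold and the strongest region per gene. The scripts were tested on simulated data. Computation was in Python 3.11.15 with the libraries scipy 1.17.1, pandas 2.3.3 and numpy 2.4.6, and plots were made in matplotlib 3.10.9.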

Additional observations from a re-analysis of the deposited data

How the results depend on the processing

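The median log2 ratio of the member promoter regions was -0.84 by library totals, -0.47 centred on all regions, -0.33 scaled to the reads on regions and -0.20 centred on the strongest 10% of promoter regions. For the other member regions it was -0.92, then -0.54, -0.41 and -0.27, and for the promoter regions of the 25 listed genes -0.64, then -0.27, -0.13 and 0.0030. Of 9 promoter regions, 4 were at least 2-fold lower by library totals (16.3% of all), 1 scaled to the reads on regions (3.15% of all) and 1 centred on the strongest promoters (1.99% of all), and the latter left 1 at least 2-fold higher (9.86% of all). Of 21 other regions, 10, then 6, 5 and 3 were at least 2-fold lower (18.8%, 8.65%, 6.42% and 4.69% of all), with 1 higher under each of the 3 scalings (23.5%, 26.7% and 30.2% of all). With 10 reads added, 8 of 21 other regions were at least 2-fold lower (15% of all), and with the strongest promoter region per gene the promoter median was -1.03. With promoters within 500 bp, 2 of 5 were at least 2-fold lower (15.9% of all), and within 2000 bp, 5 of 11 (17.2% of all). At 500 bp both *Slc27a2* promoter regions left the class. The main one was centred 506 bp from the TSS used by the authors, although it spans the RefSeq start. At 1.5-fold, 7 of 9 promoter regions were lower and 0 higher (47.8% and 7.27% of all), and 15 of 21 other regions were lower and 1 higher (36.5% and 24.3% of all). Over the 30 single regions, 3, 3 and 5 changed sign under the 3 scalings, none of them at *Slc27a2*, and added reads or the filter changed none. No paired analysis was possible because each group had 1 library. Depth limits the weak regions: intervals were widest at the *Fabp2* region 9218 bp downstream (-1.93 to -0.43) and the *Fabp1* region 6389 bp downstream (-2.65 to -1.26), both counted as 2-fold lower, and spread between mice was not measured.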
